A study of Mus musculus with 10 samples.

Results

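The genes described here are the Wnt ligands, their receptors and their secreted antagonists, as measured on all 10 arrays of the series. A gene was taken in when a probe was annotated with exactly 1 symbol that was a numbered Wnt or Fzd, Sfrp1 to Sfrp5, Dkk1 to Dkk4, Rspo1 to Rspo4, Lrp5, Lrp6, Wif1, Axin2 or Lef1, and where a gene had several probes, the one whose log2 levels averaged highest over the arrays was read. This gave 45 genes of the 18069 that the arrays name by 1 symbol, from 53 of 34967 probes. They were 19 Wnt ligands, 10 Frizzled receptors, 2 Lrp co-receptors, 9 secreted antagonists, 3 R-spondins, and Axin2 and Lef1. No probe carried Rspo4 or Sfrp3 as its only symbol.

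The arrays fell into 5 groups of 2, namely embryoid bodies (EBs) without doxycycline, called Dox(-) EBs, the same with it, called Dox(+) EBs, and as references βTC6 cells, whole islets and pancreas of E15.5 embryos. Both kinds of EBs came from tet-pdx1/ngn3 cells, a derivative of the mouse ES cell line Ainv18 in which doxycycline (Dox) switches on a Pdx1-IRES-Ngn3 cassette. Both were harvested on day 13 after activin A at 50 ng/ml from day 2, to which BMP4 at 50 ng/ml and bFGF at 10 ng/ml were added on day 4, and they floated freely from day 6. Dox(+) EBs also received Dox at 1 µg/ml from day 4. βTC6 is a mouse insulinoma line, the islets have no age in the labels, and the embryonic pancreas was taken whole, so mesenchyme, vessels and exocrine cells were in it. The labels number 2 biological replicates per group without saying whether these were separate cultures or dissections, so p-values measure the spread between these arrays.

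Wnt proteins are secreted, lipid-modified signals that bind a Frizzled receptor together with Lrp5 or Lrp6. In the canonical branch this stabilises β-catenin, which acts with Tcf and Lef factors on target genes such as Axin2, while the planar cell polarity branch uses Frizzled without β-catenin. Sfrp proteins and Wif1 bind Wnts in the extracellular space, Dkk1, Dkk2 and Dkk4 act through Lrp5 and Lrp6, and R-spondins strengthen the signal by keeping Frizzled at the cell surface. In the pancreas, Wnt signals pass between mesenchyme and epithelium during development.

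A level of 1 is the level of the middle probe of an array. Values under 0.27 were set to 0.27, called the floor here, and a difference is on the log2 scale of these floored levels with its standard error (SE) from limma over all 10 arrays. The scale is specific to each probe, so levels are compared between arrays and never between genes. On 1 array, 23070 to 25993 probes were above background, no spot of a member was saturated, and the number of arrays limits the precision. In bulk RNA, fewer cells of a type and less RNA per cell cannot be told apart. EBs, E15.5 pancreas, and βTC6 cells with islets lay in 3 separate ranges of slide numbers, so slide and tissue cannot be told apart when EBs or islets are compared with another range. Another entry of the EB labels names activated Notch4 as the induced gene, and the probes of the genes concerned did not settle this. Whether these probes read the transcript of the cassette was not tested. Pdx1 was at 0.27 and 0.333 without Dox and at 0.27 on both arrays with Dox. Neurog3 (Ngn3) was at 0.458 and 0.52 without and 0.447 and 0.557 with Dox. Across the reference arrays, the Pdx1 probe ranged from 0.281 to 0.776 and the Neurog3 probe from 0.431 to 0.687. Both probes thus stayed under the middle probe of every reference array too, so nothing about induction is read from their EB levels. Notch4 was at 0.637 and 0.799 without Dox and at 0.877 on the 1 Dox(+) array that measured it.

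Promoter sequences were taken from a RefSeq table (GRCm38.p6) for 29 of the 45 genes. Member promoters on a chromosome were left out, and other members had no promoter matched by symbol. The promoters of 5 genes are shown because these genes carried large differences below. Wnt4 and Sfrp5 rose with Dox, Fzd5 and Dkk2 fell, and Wnt3 was high in islets. Each line gives the 150 bases that end just before the annotated start, 5′ to 3′ on the strand of the gene. Capitals mark CANNTG, the E-box read by basic helix-loop-helix factors such as Ngn3, and CTAATG on either strand, which holds a homeodomain TAAT core of the kind Pdx1 reads.
Wnt4, chr4:137277485-137277634, plus strand: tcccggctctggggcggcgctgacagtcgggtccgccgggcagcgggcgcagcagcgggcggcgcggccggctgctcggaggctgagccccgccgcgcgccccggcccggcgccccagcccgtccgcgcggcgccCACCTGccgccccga
Sfrp5, chr19:42202253-42202402, minus strand: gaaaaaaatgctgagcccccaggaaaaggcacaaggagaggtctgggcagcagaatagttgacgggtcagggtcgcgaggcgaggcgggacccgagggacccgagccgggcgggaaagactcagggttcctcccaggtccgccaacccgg
Fzd5, chr1:64737751-64737900, minus strand: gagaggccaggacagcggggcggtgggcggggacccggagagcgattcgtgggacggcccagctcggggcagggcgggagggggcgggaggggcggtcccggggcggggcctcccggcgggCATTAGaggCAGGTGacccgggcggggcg
Dkk2, chr3:132085142-132085291, plus strand: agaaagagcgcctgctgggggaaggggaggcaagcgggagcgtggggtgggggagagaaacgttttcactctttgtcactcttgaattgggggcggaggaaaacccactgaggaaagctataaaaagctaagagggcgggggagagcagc
Wnt3, chr11:103774025-103774174, plus strand: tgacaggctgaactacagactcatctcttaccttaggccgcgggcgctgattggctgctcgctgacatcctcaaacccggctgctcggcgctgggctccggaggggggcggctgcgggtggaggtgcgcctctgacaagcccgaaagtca

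Over the 250 bases before each start, CANNTG was found in 22 of the 35 promoters taken for these 29 genes (62.9%) and in 66.2% of all 32851 promoters. The chromosome left out for members is included in the 32851. CAGATG, which is contained in CANNTG and is the form often named for neurogenins, was found in 2 of 35 (5.71%) against 14.4% of all, and CTAATG in 1 of 35 (2.86%) against 6.36% of all, the 1 being Fzd5. The Tcf and Lef letters CTTTGAT were found in 2 of 35 (5.71%) against 3.21% of all and CTTTGTT in 2 of 35 (5.71%) against 5.03% of all, both searched on either strand. Only 12 of the 19 genes called with Dox had a promoter in this set, 1 each, and Fzd3 and Dkk3 were among those without. Of these 12 promoters, 8 held CANNTG and 1 held CTAATG. None held the E-box CAGATG, and none held the Tcf and Lef motif as CTTTGAT or as CTTTGTT. With 12 promoters and the low shares over all promoters, nothing is read from these absences. A match describes letters in this window and is no binding site. The median G and C content of these stretches was 66.8% for members and 52.4% for all promoters.

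Of the 45 genes, 19 were above background on all 10 arrays, and Wnt7b, Wnt16, Dkk1, Dkk4 and Axin2 were above background on none. The test took genes with a value in every group that rose above background on both arrays of 1 group or more, which left 38 genes. The other 2 untested genes were Wnt2, above background on 1 Dox(-) array, and Fzd8, whose spots were missing on both E15.5 pancreas arrays. Both arrays were above background for 35 of the 45 genes in Dox(+) EBs, 33 in E15.5 pancreas, 31 in Dox(-) EBs, 28 in βTC6 cells and 27 in islets.

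**Figure D1:**
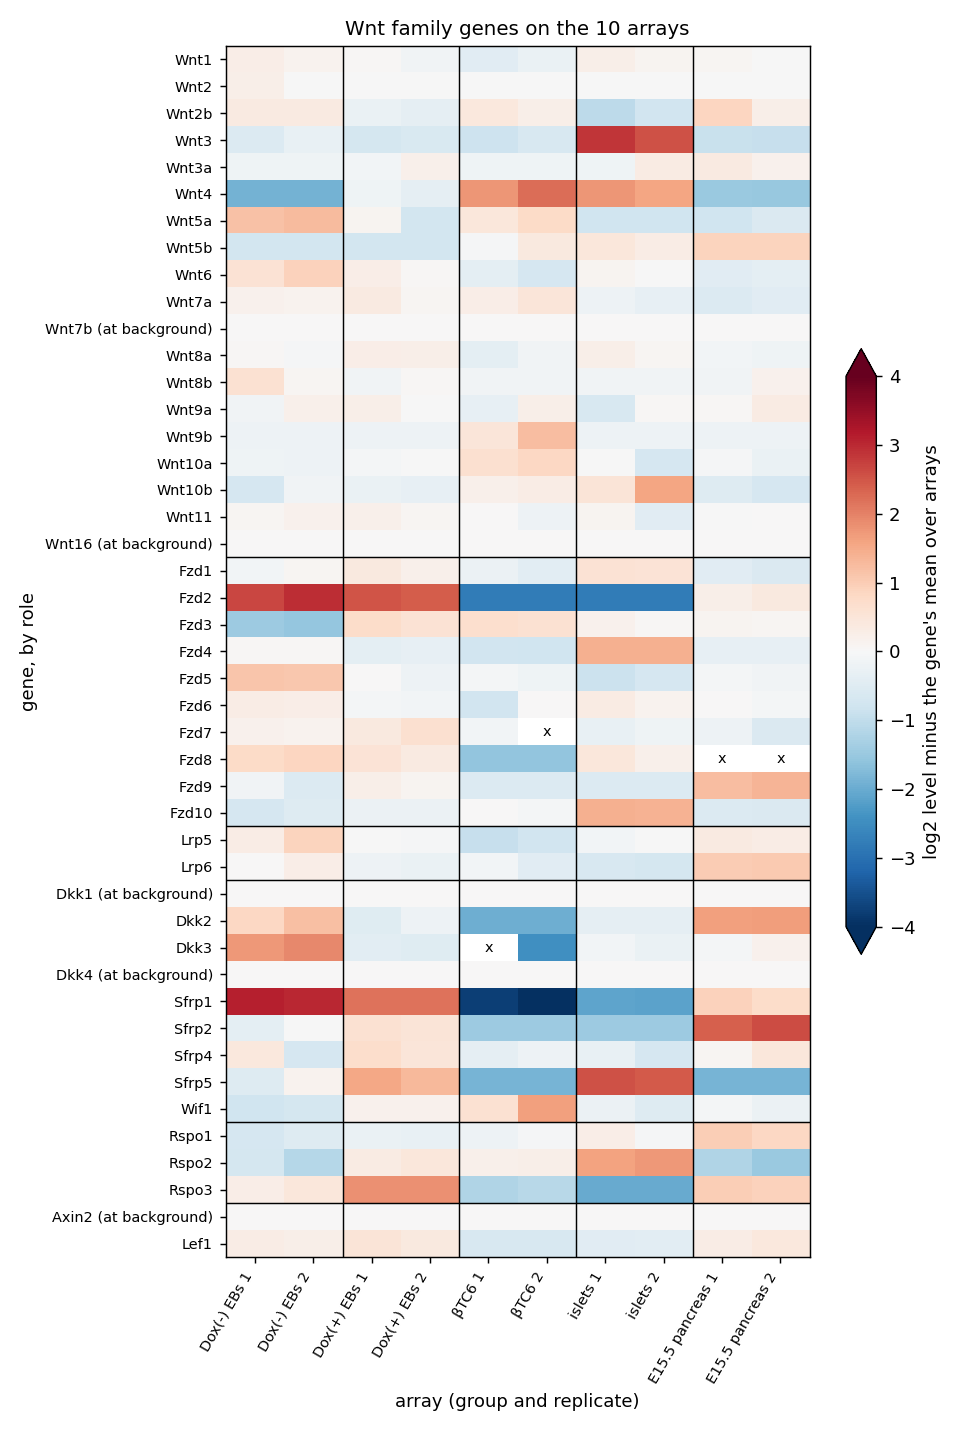
Heat map of the 45 Wnt family genes (rows, by role) on the 10 arrays (columns, 2 per group). Colour is the log2 level minus the mean of that gene over the arrays, with colours ending at 4 in either direction, a white cell with an x is a missing spot, and 5 genes at background on every array are marked. Sfrp1 and Fzd2 stood high in both kinds of EBs and low in βTC6 cells and islets, and Wnt3 stood out in islets.

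Between Dox(+) and Dox(-) EBs, 10 of the 38 genes rose and 9 fell, each with an adjusted p under 0.05. Over all 15696 genes tested, 25.0% rose and 23.5% fell, so the family as a whole was called about as often as other genes. By role, 1 of 16 tested ligands rose and 3 fell, and 3 of 9 Frizzled receptors rose and 2 fell. Of 7 tested antagonists, 3 rose and 3 fell. All 3 R-spondins rose, while Lrp5 fell and Lrp6 and Lef1 were not called. Each role holds few genes and the roles were not compared by a test, so no difference between roles is read from these counts. The median log2 difference was 0.07 over the 38 genes, 0.01 over the ligands, 0.71 over the antagonists and 1.31 over the R-spondins, against 0.00 over all genes tested. The antagonist median was the value of Sfrp4, which was not called, with 3 called antagonists below it and 3 above. In every member named as changed, both Dox(+) arrays lay on the same side of both Dox(-) arrays. That was a condition of being named and adds no support. The EB groups also did not overlap in members that were not called, such as Wnt3, Fzd2 and Lrp6.

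**Figure D2:**
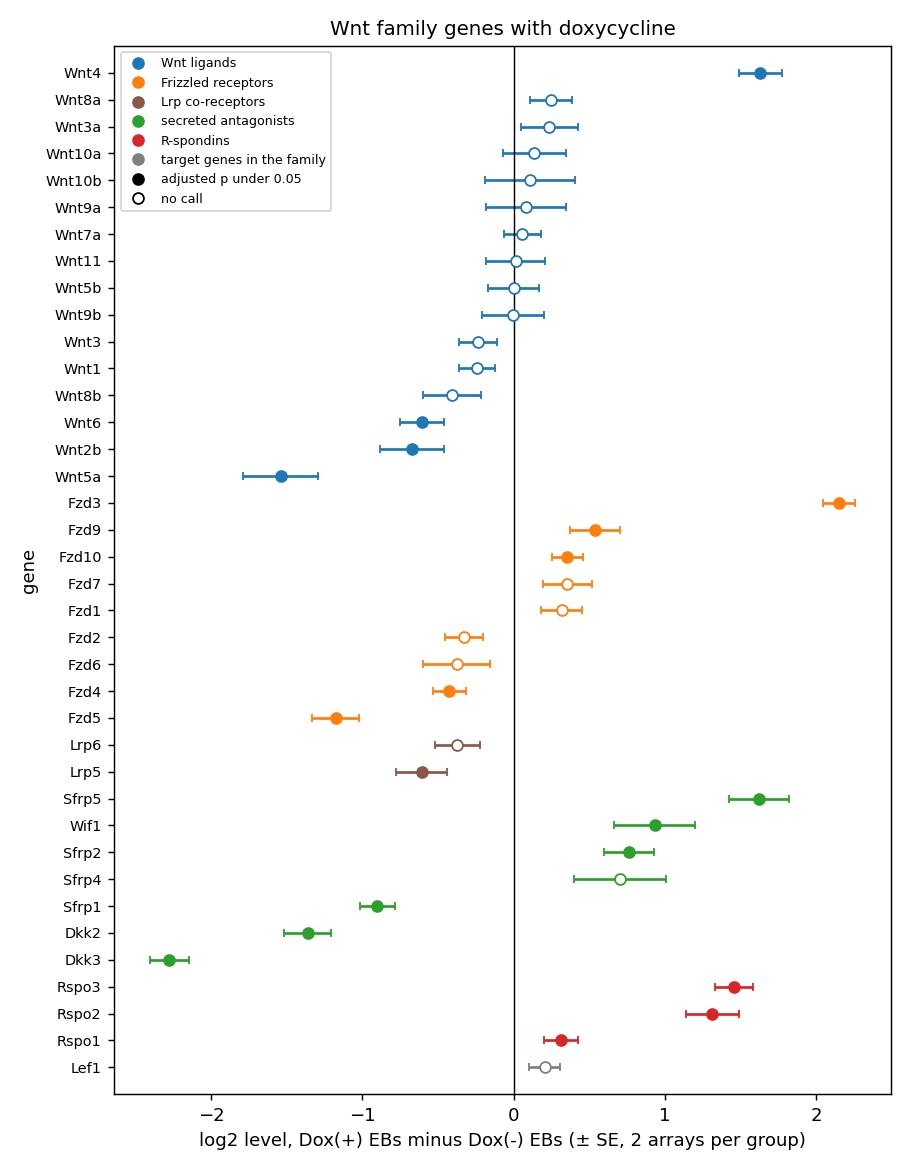
Log2 level in Dox(+) EBs minus that in Dox(-) EBs (horizontal axis, ± SE, 2 arrays per group) for the 38 tested genes, grouped by role. Filled points passed the test at an adjusted p under 0.05, 10 to the right of 0 and 9 to the left. Fzd3 lay farthest to the right (2.15) and Dkk3 farthest to the left (-2.28).

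Among the ligands, Wnt4, which acts in kidney and gonad development and is also made by β cells, was the only one of the 16 tested that rose with Dox. Its level was 3.49 and 3.53 on the arrays without Dox and 11.5 and 10.3 on those with Dox, a 3.1-fold rise (log2 difference 1.63 ± 0.14, adjusted p = 5.58e-06). Its other probe gave the same direction, from 0.757 and 0.69 to 2.83 and 1.91 (3.22-fold, adjusted p = 2.60e-05). The Dox(+) level remained below that of both endocrine references. Wnt4 stood at 44.4 and 61.8 in βTC6 cells and at 44.1 and 38.9 in islets, 4.82-fold (adjusted p = 1.83e-07) and 3.81-fold (adjusted p = 5.43e-07) above Dox(+) EBs. In E15.5 pancreas it was at 4.69 and 4.59, 2.34-fold below Dox(+) EBs (adjusted p = 2.68e-05) and 8.93-fold below islets (adjusted p = 1.20e-08).

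The 3 ligands that fell were Wnt5a, Wnt2b and Wnt6. Wnt5a, the ligand best known for β-catenin-independent signalling and for expression in mesenchyme, went from 1.07 and 1.14 to 0.509 and 0.282, a 2.91-fold fall (log2 difference -1.54 ± 0.25, adjusted p = 5.49e-04). The Dox(+) arrays differed from each other here, the lower of them at background, and with the EB arrays fitted alone the adjusted p was 0.0609. Wnt5a was at the floor on both islet arrays and at 0.647 and 0.797 in βTC6 cells, 1.9-fold above Dox(+) EBs (adjusted p = 0.00752), with 0.27 and 0.315 in the embryonic pancreas. Wnt2b fell from 0.704 and 0.71 to 0.457 and 0.429 (1.6-fold, adjusted p = 0.0248). Wnt6 fell from 5.44 and 6.85 to 4.33 and 3.72 (1.52-fold, adjusted p = 0.00676). Both falls were lost under several other settings, Wnt2b when any 1 of the 4 EB arrays was left out and Wnt6 when replicate 2 of either EB group was left out.

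The other 12 tested ligands were not called with Dox, with log2 differences from -0.41 (Wnt8b) to 0.25 (Wnt8a). Several of them differed between tissues. Wnt3, a canonical ligand needed for gastrulation, was at 63.5 and 50.7 in islets and between 4.61 and 7 on the other 8 arrays. Islets exceeded Dox(+) EBs 10.3-fold (log2 difference of Dox(+) EBs minus islets -3.37 ± 0.13, adjusted p = 3.57e-09) and E15.5 pancreas 12.2-fold (adjusted p = 2.24e-09). βTC6 cells, at 4.86 and 5.57, did not share the islet level.

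Wnt5b, a close relative of Wnt5a, was at the floor on all 4 EB arrays and above background in the 3 references, at 0.434 and 0.589 on the βTC6 arrays, 0.611 and 0.543 on the islet arrays and 0.835 and 0.829 on the E15.5 pancreas arrays. E15.5 pancreas was thereby at least 3.08-fold above Dox(+) EBs (adjusted p = 1.40e-05). Wnt10b, a ligand that restrains fat cell formation, was higher in islets (0.606 and 1.26) than in Dox(+) EBs (0.353 and 0.343), with an adjusted p of 0.00222 although the islet arrays lay apart. Wnt9b, needed for kidney tubule formation, was above background on the βTC6 arrays alone, at 0.439 and 0.735, at least 2.1-fold above Dox(+) EBs. It entered the test through βTC6 cells alone, so no p is given for that difference. Of the ligands not called with Dox, Wnt1, Wnt3, Wnt7a, Wnt8a, Wnt10a and Wnt11 were above background on all 10 arrays.

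Some of these ligands are neighbours on the chromosome. In the mouse RefSeq gene list, Wnt3 and Wnt9b, and also Wnt3a and Wnt9a, lie next to each other on chromosome 11 with no other protein-coding gene between them, as do Wnt6 and Wnt10a on chromosome 1 and Wnt1 and Wnt10b on chromosome 15. The members of a pair did not share their pattern in the clearest case: Wnt3 was high in islets, where Wnt9b was at the floor on both arrays, and Wnt9b was above background in βTC6 cells, where Wnt3 was at its level of the other groups. Wnt6 fell with Dox, whereas Wnt10a was at 0.548 and 0.534 without and at 0.582 and 0.609 with Dox (adjusted p = 0.659).

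Among the Frizzled receptors, Fzd3, which acts with Celsr3 in axon guidance and in planar cell polarity, rose most among the probes read for the 45 genes, while the second Rspo2 probe, described with the R-spondins, rose more. Its level went from 1.37 and 1.27 to 6.23 and 5.54, a 4.45-fold rise (log2 difference 2.15 ± 0.11, adjusted p = 7.03e-08). Dox(-) EBs were the low group, since βTC6 cells were at 5.97 and 5.75, islets at 4.21 and 3.91 and E15.5 pancreas at 4.08 and 3.91. Dox(+) EBs exceeded islets 1.45-fold (adjusted p = 0.001) and E15.5 pancreas 1.47-fold (adjusted p = 9.76e-04), and the difference from βTC6 cells was not called (adjusted p = 1). The 4 Fzd3 probes did not agree. A second probe rose from 0.385 and 0.559 to 3.14 and 2.73 (6.32-fold, adjusted p = 2.17e-06), 1 Dox(-) array being at background, while the third and the fourth, both named for expressed sequence tags, had adjusted p of 0.621 and 0.871.

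Fzd9 and Fzd10 also rose, by less. Fzd9 went from 0.358 and 0.27 to 0.472 and 0.431 (1.45-fold, adjusted p = 0.0229), with 1 of the 2 Dox(-) arrays at background. Fzd10 went from 2.29 and 2.55 to 3.08 and 3.11 (1.28-fold, adjusted p = 0.015). Neither call held when Dox(+) replicate 1 or replicate 2 was left out. In islets Fzd10 was higher, at 9.77 and 9.56, 3.13-fold above Dox(+) EBs (adjusted p = 1.28e-07). Fzd10os, annotated on the opposite strand, has a probe of its own.

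Fzd5, a receptor expressed in endoderm and yolk sac, and Fzd4, the receptor of the vascular ligand norrin, fell. Fzd5 went from 1.06 and 1.04 to 0.504 and 0.43, a 2.26-fold fall (log2 difference -1.18 ± 0.16, adjusted p = 1.37e-04). βTC6 cells (0.473 and 0.437) and E15.5 pancreas (0.469 and 0.451) lay beside Dox(+) EBs, with neither difference called (adjusted p = 0.891 and 0.952), and islets were lower at 0.27 and 0.309. Fzd4 went from 1.71 and 1.72 to 1.24 and 1.31 (1.34-fold, adjusted p = 0.00879). Fzd4 was highest in islets, at 4.43 on both arrays, 3.47-fold above Dox(+) EBs (adjusted p = 1.17e-07).

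Fzd2, a receptor that can transmit Wnt5a signals, differed widely between the tissues without being called with Dox. Its EB arrays read 11.8 and 14.4 without Dox and 10.8 and 9.99 with Dox (adjusted p = 0.0595), and all 4 arrays of βTC6 cells and islets were at the floor. Dox(+) EBs were at least 33-fold above βTC6 cells (adjusted p = 2.18e-10) and at least 38.5-fold above islets (adjusted p = 1.72e-10). E15.5 pancreas lay between, at 2.22 and 2.46, 4.44-fold below Dox(+) EBs (adjusted p = 1.87e-07) and at least 8.66-fold above islets (adjusted p = 6.23e-09). The collagens and other mesenchyme markers on the same arrays are given with the antagonists. Fzd1, Fzd6 and Fzd7 were not called with Dox, with log2 differences of 0.32, -0.38 and 0.35. Fzd8 went from 1.39 and 1.46 to 1.2 and 1.05 and was at the floor in βTC6 cells, and in a fit without the pancreas arrays, chosen after the values were seen, its adjusted p was 0.104 with Dox and 5.15e-06 against βTC6 cells.

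The co-receptors were above background on every array. Lrp5 went from 2.66 and 3.98 to 2.16 and 2.11 with Dox, a 1.52-fold fall (adjusted p = 0.014). The Dox(-) arrays lay apart, and the fall was not called when Dox(-) replicate 2 or either Dox(+) array was left out. Lrp5 was lowest in βTC6 cells, at 1.15 and 1.26 (Dox(+) EBs 1.77-fold higher, adjusted p = 0.0014). Lrp6 went from 1.13 and 1.35 to 0.983 and 0.932 and was not called (adjusted p = 0.0732). It was highest in E15.5 pancreas, at 2.3 and 2.33, 2.42-fold above Dox(+) EBs (adjusted p = 3.57e-05) and 3.25-fold above islets (adjusted p = 2.78e-06).

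Of the 7 tested secreted antagonists 6 were called, 3 in each direction, against 48.6% of all genes. Dkk3, a Dickkopf relative that is atypical in not blocking Lrp6 in most assays, fell most among the probes read for the 45 genes, from 9.18 and 10.4 to 2.08 and 1.96 (4.84-fold, log2 difference -2.28 ± 0.13, adjusted p = 6.25e-07). Dkk2, which can block or weakly activate Lrp6, fell from 1.86 and 2.4 to 0.744 and 0.913 (2.57-fold, log2 difference -1.36 ± 0.16, adjusted p = 5.17e-05). Sfrp1, a secreted Frizzled-related protein, fell from 85.8 and 81.5 to 44.7 and 44.8 (1.87-fold, log2 difference -0.90 ± 0.12, adjusted p = 1.16e-04). The second Sfrp1 probe fell as well, from 18.1 and 25.9 to 13.4 and 11.1 (1.78-fold, adjusted p = 0.00198). On the second Sfrp1 probe the 2 Dox(-) arrays lay farther from each other than from the nearest Dox(+) array to the lower of them.

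Most mesenchyme markers fell on the same EB arrays: 7 of 10 fell and 2 rose. The 2 that rose were Twist1, from 5.17 and 5.02 to 13.2 and 11.2, and Pdgfrb, from 10.5 and 10.8 to 13.9 and 12.6. Pdgfra was not called (adjusted p = 0.244), so the markers did not move together. Without Col3a1, which was saturated in Dox(-) EBs and E15.5 pancreas, the other 9 summed to 546 and 586 without Dox and to 189 and 184 with Dox. Of the liver markers, 7 of 8 were lower with Dox and Ttr was higher. Without Afp, saturated in Dox(-) EBs, and Ttr, saturated in Dox(+) EBs, the other 6 summed to 244 and 285 without Dox and to 38.6 and 34.5 with Dox. No marker of either list was at background on both arrays of an EB group. The part of these cells in the falls of Dkk3, Dkk2, Sfrp1, Wnt5a and Fzd5 was not tested. The 9 mesenchyme markers summed to 6.01 and 6.32 in βTC6 cells, where Col1a1, Col1a2, Lum and Dcn among them were at background, to 62.6 and 63.9 in islets and to 353 and 353 in E15.5 pancreas.

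Sfrp1 differed widely across the references. The βTC6 arrays read 0.73 and 0.584, the islet arrays 2.33 and 2.27, and the E15.5 pancreas arrays 19.1 and 16.5. Dox(+) EBs were 68.5-fold above βTC6 cells (log2 difference 6.10 ± 0.12, adjusted p = 4.79e-11), 19.5-fold above islets (adjusted p = 3.52e-10) and 2.52-fold above E15.5 pancreas (adjusted p = 3.49e-06). E15.5 pancreas in turn was 7.74-fold above islets (adjusted p = 4.82e-09). Dkk2 was at background on both arrays of βTC6 cells, read 0.811 and 0.827 in islets, and was highest in E15.5 pancreas, with 3.3 and 3.35, 4.04-fold above Dox(+) EBs (adjusted p = 1.48e-06). Dkk3 was measured on 1 βTC6 array, at 0.505, and was between 2.32 and 3.11 in islets and E15.5 pancreas.

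Sfrp5, Wif1 and Sfrp2 rose with Dox. Sfrp5, known from foregut endoderm and fat tissue, went from 0.685 and 1.08 to 2.89 and 2.41 (3.07-fold, log2 difference 1.62 ± 0.20, adjusted p = 7.67e-05). It was at the floor on both arrays of βTC6 cells and of E15.5 pancreas, and higher still in islets, at 5.8 and 5.34. Islets were 2.11-fold above Dox(+) EBs (adjusted p = 6.25e-04) and at least 20.6-fold above E15.5 pancreas (adjusted p = 1.32e-08), and Dox(+) EBs were at least 8.4-fold above βTC6 cells (adjusted p = 1.42e-07) and at least 9.78-fold above E15.5 pancreas (adjusted p = 2.11e-07).

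Wif1 went from 0.555 and 0.592 to 1.1 and 1.09 (1.91-fold, adjusted p = 0.0174), and its call was lost when any 1 of the 4 EB arrays was left out. In βTC6 cells Wif1 was at 1.47 and 3.03, 1.93-fold above Dox(+) EBs (adjusted p = 0.0102), and its second probe was at background on every array. Sfrp2 went from 0.564 and 0.731 to 1.12 and 1.06 (1.7-fold, adjusted p = 0.00334). The Sfrp2 call was lost at a floor of 1, with the EB arrays fitted alone and under the 2-fold minimum. Sfrp2, like Sfrp1 a product of mesenchyme in many organs, was at the floor in βTC6 cells and islets. The E15.5 pancreas arrays read 3.86 and 4.52, 3.83-fold above Dox(+) EBs (adjusted p = 2.65e-06) and at least 15.475-fold above islets (adjusted p = 6.77e-09). Sfrp4 was not called with Dox (adjusted p = 0.0866), the Dox(-) arrays being at 0.573 and at the floor.

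The R-spondins all rose. Rspo3, which acts in vessel and gut development, went from 1.32 and 1.49 to 3.88 and 3.81 (2.75-fold, log2 difference 1.46 ± 0.13, adjusted p = 5.55e-06). Dox(+) EBs had the highest Rspo3 level of the 5 groups. It was at 0.473 and 0.507 in βTC6 cells (7.86-fold lower than Dox(+) EBs, adjusted p = 1.02e-08), at the floor in islets (at least 14.2-fold lower, adjusted p = 1.25e-09) and at 2.15 and 2.06 in E15.5 pancreas (1.83-fold lower, adjusted p = 1.49e-04). E15.5 pancreas was at least 7.79-fold above islets (adjusted p = 8.32e-09). Rspo1 went from 11.2 and 12.4 to 14.8 and 14.4 (1.24-fold, adjusted p = 0.0479), a call that was lost under 11 of 17 other settings. Rspo1 was highest in E15.5 pancreas, at 34.9 and 31.7 (2.27-fold above Dox(+) EBs, adjusted p = 7.35e-06).

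Rspo2, known from limb and lung development, was read by probes that agreed on the rise and not on the tissues. The probe with the higher mean went from 0.461 and 0.346 to 0.945 and 1.04 (2.49-fold, log2 difference 1.31 ± 0.17, adjusted p = 1.41e-04), with 1 of the 2 Dox(-) arrays at background. The other probe, named for a RefSeq mRNA, went from 0.492 and 0.427 to 6.38 and 5.97, a 13.5-fold rise (log2 difference 3.75 ± 0.23, adjusted p = 3.46e-07). On the first probe islets were highest, at 2.29 and 2.52, 2.42-fold above Dox(+) EBs (adjusted p = 7.21e-05) and 8.11-fold above E15.5 pancreas (adjusted p = 8.76e-08), where 1 of the 2 arrays was at background. On the second probe islets were at 0.323 and at the floor, and Dox(+) EBs stood above the arrays of all other groups. The first probe was also 3.35-fold higher in Dox(+) EBs than in E15.5 pancreas (adjusted p = 9.55e-06). The direction between Dox(+) EBs and islets therefore depends on the probe.

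**Figure D3:**
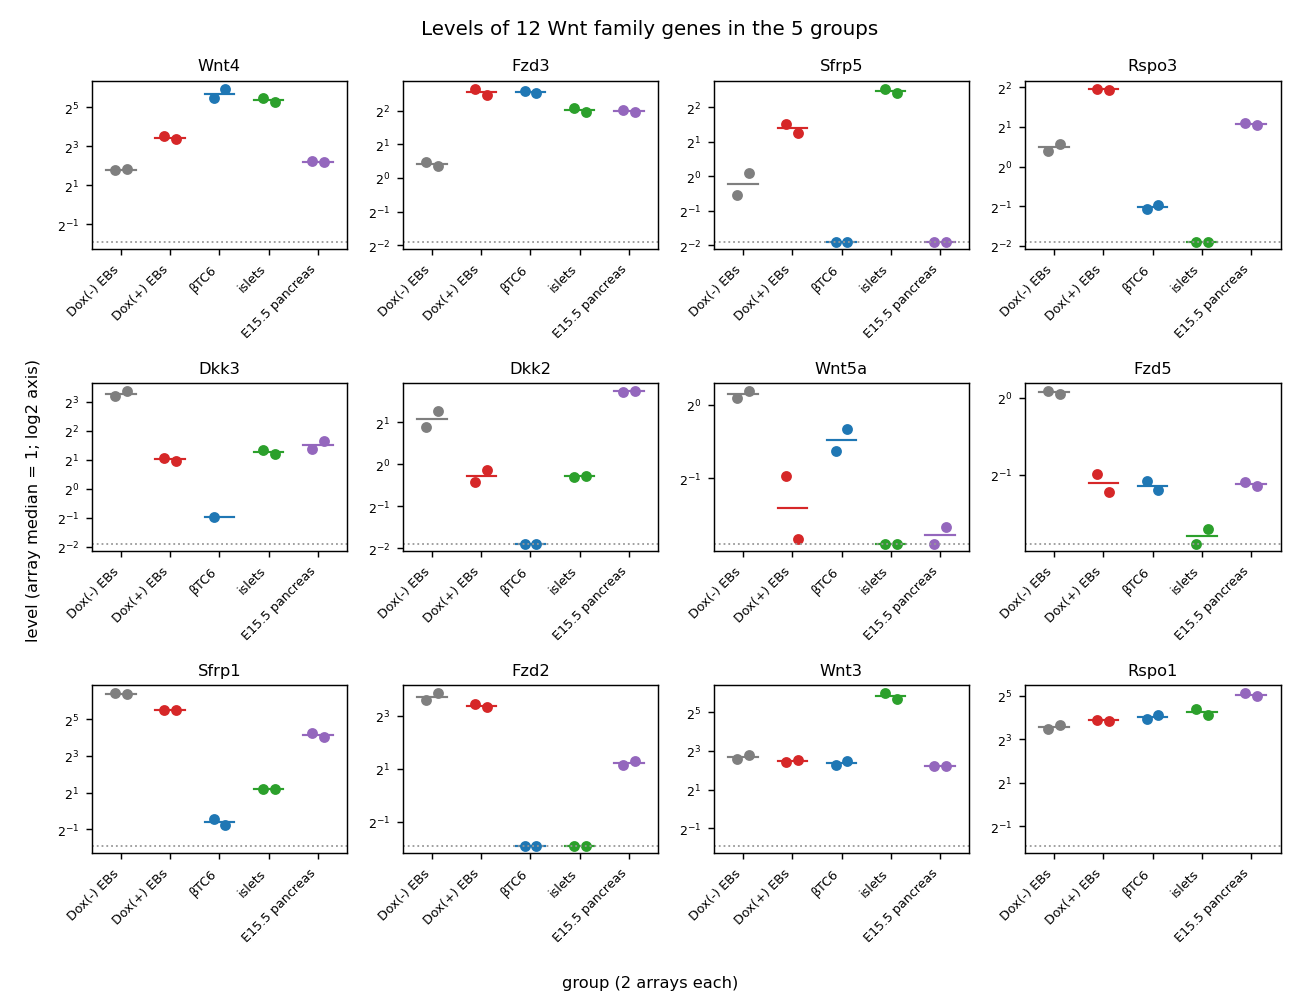
Levels of 12 genes on each array (points, 2 per group, log2 axis, array median = 1) in the 5 groups, with the mean of the log2 levels as a line and the floor of 0.27 dotted. Wnt4, Fzd3, Sfrp5 and Rspo3 were higher and Dkk3, Dkk2, Wnt5a, Fzd5 and Sfrp1 lower in Dox(+) than in Dox(-) EBs, while Fzd2 was at the floor in βTC6 cells and islets and Wnt3 stood out in islets.

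Genes listed as markers of neurons, endocrine, acinar and endothelial cells were among those that rose on the arrays where Fzd3, Wnt4, Sfrp5 and the R-spondins rose. All 10 neuronal markers rose, with a summed level of 5.2 and 5.41 in Dox(-) and 174 and 158 in Dox(+) EBs. The same 10 summed to 254 and 281 in βTC6 cells and to 68.2 and 69.3 in islets. Against βTC6 cells, 4 of the 10 were higher in Dox(+) EBs and 5 lower. Against islets 6 were higher and 1 lower, and against E15.5 pancreas 9 were higher and none lower. Since βTC6 cells and islets carried these markers too, the list alone does not tell neurons from endocrine cells. All 9 tested endocrine markers rose, from 7.1 and 7.02 to 559 and 491. Dcx, Stmn2, Elavl3, Elavl4, Map2, Nefl and Nefm, and also Chgb, Pax6 and Sst, were at background on both Dox(-) arrays. Of 7 tested acinar markers 5 rose and none fell, from a summed level of 4.33 and 4.09 to 21.1 and 25.6, with Amy2a5 and Cpb1 at background on both Dox(-) arrays. Of 6 endothelium markers 3 rose and none fell, from 35.9 and 38.4 to 50 and 46.2, with Cdh5 at background on both Dox(-) arrays. The part of any of these cell types in the rises was not tested. In islets, 6 of the 7 acinar markers were saturated on 1 or both arrays, so their sum there is not given. Amy2a5, Cpa1 and Cpb1 were at background in βTC6 cells, where the 7 summed to 4.32 and 3.72. The part of acinar cells in the islet levels of Wnt3, Sfrp5, Fzd4 and Fzd10 was not tested.

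Axin2, a negative regulator that is itself induced by β-catenin in many tissues, was at background on all 10 arrays, so it gives no reading of pathway activity here. Lef1, a nuclear partner of β-catenin, was read by probes that disagreed. The probe with the higher mean was at 4.41 and 4.19 without and 5.18 and 4.75 with Dox (log2 difference 0.20 ± 0.10, adjusted p = 0.133). The probe named for the RefSeq mRNA went from 2.37 and 2.24 to 1.38 and 1.51 with Dox, a 1.6-fold fall (adjusted p = 0.00532). On the first probe Lef1 was lower in βTC6 cells (2.29 and 2.31) and islets (2.63 and 2.69) than in Dox(+) EBs, 2.16-fold and 1.86-fold (adjusted p = 3.52e-06 and 1.66e-05), and E15.5 pancreas was at 4.39 and 4.81.

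**Figure D4:**
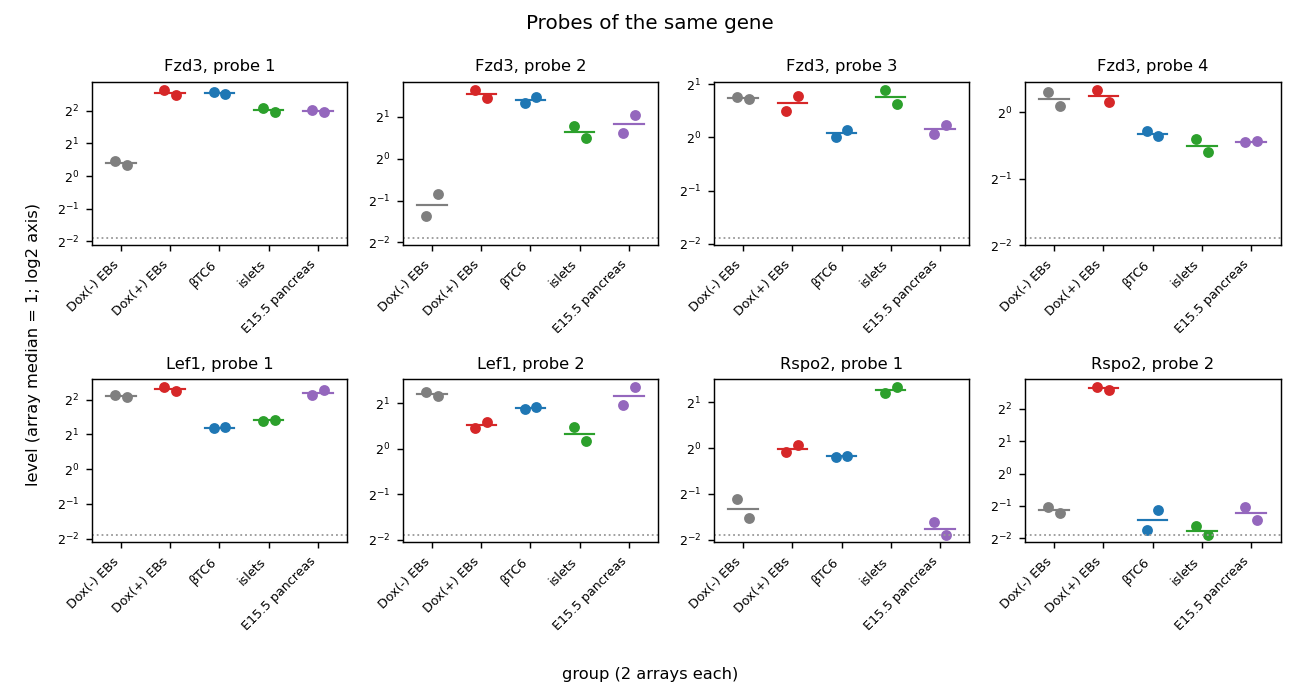
Levels on each array (points, 2 per group, log2 axis, array median = 1) for every probe of Fzd3, Lef1 and Rspo2, numbered by falling mean log2 level, with the group mean as a line and the floor dotted. Probes 1 and 2 of Fzd3 rose with Dox and probes 3 and 4 did not, Lef1 fell on probe 2 alone, and the islet arrays were the highest on probe 1 of Rspo2 and near the floor on probe 2.

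Against the references, the counts of the family were as follows. Between Dox(+) EBs and βTC6 cells, 17 of 38 genes were higher in the EBs and 7 lower, where 27.5% of all genes were higher and 41.3% lower. The 7 lower genes were Wif1 and 6 of the 16 tested ligands (Wnt2b, Wnt4, Wnt5a, Wnt5b, Wnt10a and, entered through βTC6 cells alone, Wnt9b). This share of the ligands, 37.5%, was near that of all genes. The 3 ligands Wnt1, Wnt6 and Wnt8a were higher, as were 5 of 9 tested Frizzled receptors and 6 of 7 antagonists. The roles were not compared by a test. Against islets, 13 were higher in Dox(+) EBs and 9 lower, with 42.2% and 29.5% over all genes. Against E15.5 pancreas, 13 were higher and 8 lower, with 37.8% and 26.4% over all genes. These 3 comparisons and the Dox comparison share the Dox(+) arrays, so their counts are not independent of each other. Between islets and E15.5 pancreas, 9 genes were higher in islets and 13 lower, with 33.2% and 35.7% over all genes.

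In the islet and pancreas comparison the ligands Wnt3, Wnt4, Wnt6 and Wnt10b and the receptors Fzd1, Fzd4 and Fzd10 were on the islet side. The ligands Wnt2b (at least 2.72-fold, adjusted p = 1.26e-04) and Wnt5b (1.44-fold, adjusted p = 0.0186) were on the pancreas side. The antagonists Sfrp1, Sfrp2, Sfrp4 and Dkk2 were there too, with Fzd2, Fzd5 and Fzd9, and Sfrp5 alone of the 7 tested antagonists was higher in islets. Of 10 mesenchyme markers, 9 were lower in islets than in E15.5 pancreas, and their part in these levels was not tested.

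The rest of the pathway was read from lists of other genes, except that the list of polarity genes also holds Fzd3 and Fzd6 and the list of targets Axin2 and Lef1. The counts with Dox stand beside 25.0% of all genes that rose and 23.5% that fell, and nothing is read from a count near these shares. Of 15 tested genes for secretion and surface reception, 5 rose and 4 fell with Dox. Apcdd1, a membrane inhibitor of Wnt signalling, rose from 0.723 and 0.749 to 3.16 and 2.96 (4.16-fold, adjusted p = 3.45e-05). Rnf43, the ubiquitin ligase that removes Frizzled from the surface and is countered by R-spondins, fell from 6 and 5.62 to 2.96 and 2.67 (2.07-fold, adjusted p = 2.81e-05), while its relative Znrf3 was not called (adjusted p = 1). Among the R-spondin receptors, Lgr5 rose from 1.96 and 1.6 to 3.64 and 3.46 (2.01-fold, adjusted p = 9.81e-04) and Lgr4 was at background on every array. Lgr5 and Znrf3 are named beyond the fixed number per list, chosen after their values were seen. Gpc3, a glypican, fell 2.16-fold (adjusted p = 5.08e-05) and Ror2, the receptor tyrosine kinase for Wnt5a, fell from 4.37 and 5.24 to 2.61 and 2.32 (1.95-fold, adjusted p = 3.37e-04).

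Among 8 other secreted modulators, 2 rose and 1 fell. Cer1, an antagonist of Nodal, BMP and Wnt made by early endoderm, rose from 0.495 and 0.27 to 14.7 and 11.5 (35.5-fold, log2 difference 5.15 ± 0.27, adjusted p = 1.37e-07) against Dox(-) arrays of which 1 was at background and is held at the floor, and it was between 0.301 and 0.915 on the 6 arrays of the references. Dkkl1 rose 2.16-fold (adjusted p = 4.04e-04), Sost fell 1.55-fold (adjusted p = 0.0143), and Igfbp4 was not called (adjusted p = 0.0687). Frzb, the gene of Sfrp3, and Notum, an enzyme that inactivates Wnts by removing their lipid, were not called with Dox (adjusted p = 0.584 and 0.325) and stood out in islets, a pair named after its values were seen. Frzb was at 21.3 and 20 and Notum at 30.2 and 29.6 in islets, 5.03-fold and 10.4-fold above Dox(+) EBs (adjusted p = 8.56e-07 and 1.82e-09).

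Of 12 tested planar cell polarity genes, 5 rose, Fzd3 among them, and 2 fell. Celsr3, the cadherin that works with Fzd3 in axon tracts, was at the floor on both Dox(-) arrays and read 15.7 and 14.2 with Dox, a rise of at least 54.4-fold (adjusted p = 9.96e-11). Dact1, a Dishevelled-binding protein, rose from 12.3 and 11.2 to 27.5 and 26.7 (2.3-fold, adjusted p = 1.98e-06). Daam2, a formin that binds Dishevelled, fell from 22.4 and 22.4 to 5.39 and 5.04 (4.29-fold, adjusted p = 1.47e-07).

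In the cytoplasm and nucleus, 4 of 20 tested genes rose and 2 fell, against 48.6% of all genes called in either direction. Ctnnb1, which encodes β-catenin, went from 18.3 and 18 to 24.3 and 22.4 (1.29-fold higher, adjusted p = 0.0238). The repressor Tle4 rose 1.68-fold, the β-catenin ubiquitin ligase subunit Btrc 1.59-fold and the β-catenin inhibitor Ctnnbip1 1.65-fold (adjusted p = 2.23e-04, 3.17e-04 and 0.0174). Of 13 tested targets, 4 rose and 2 fell. Sp5, a transcription factor induced by β-catenin in embryos, was at or near the floor in Dox(-) EBs and read 2.66 and 2.08 with Dox, a rise of at least 7.92-fold (adjusted p = 2.07e-07), and Ccnd1 (cyclin D1) rose at least 2.54-fold (adjusted p = 2.96e-05). Nkd1, a feedback inhibitor, fell from 15.4 and 15.7 to 6.04 and 5.7 (2.65-fold, adjusted p = 2.51e-05), as did Rnf43.

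**Figure D5:**
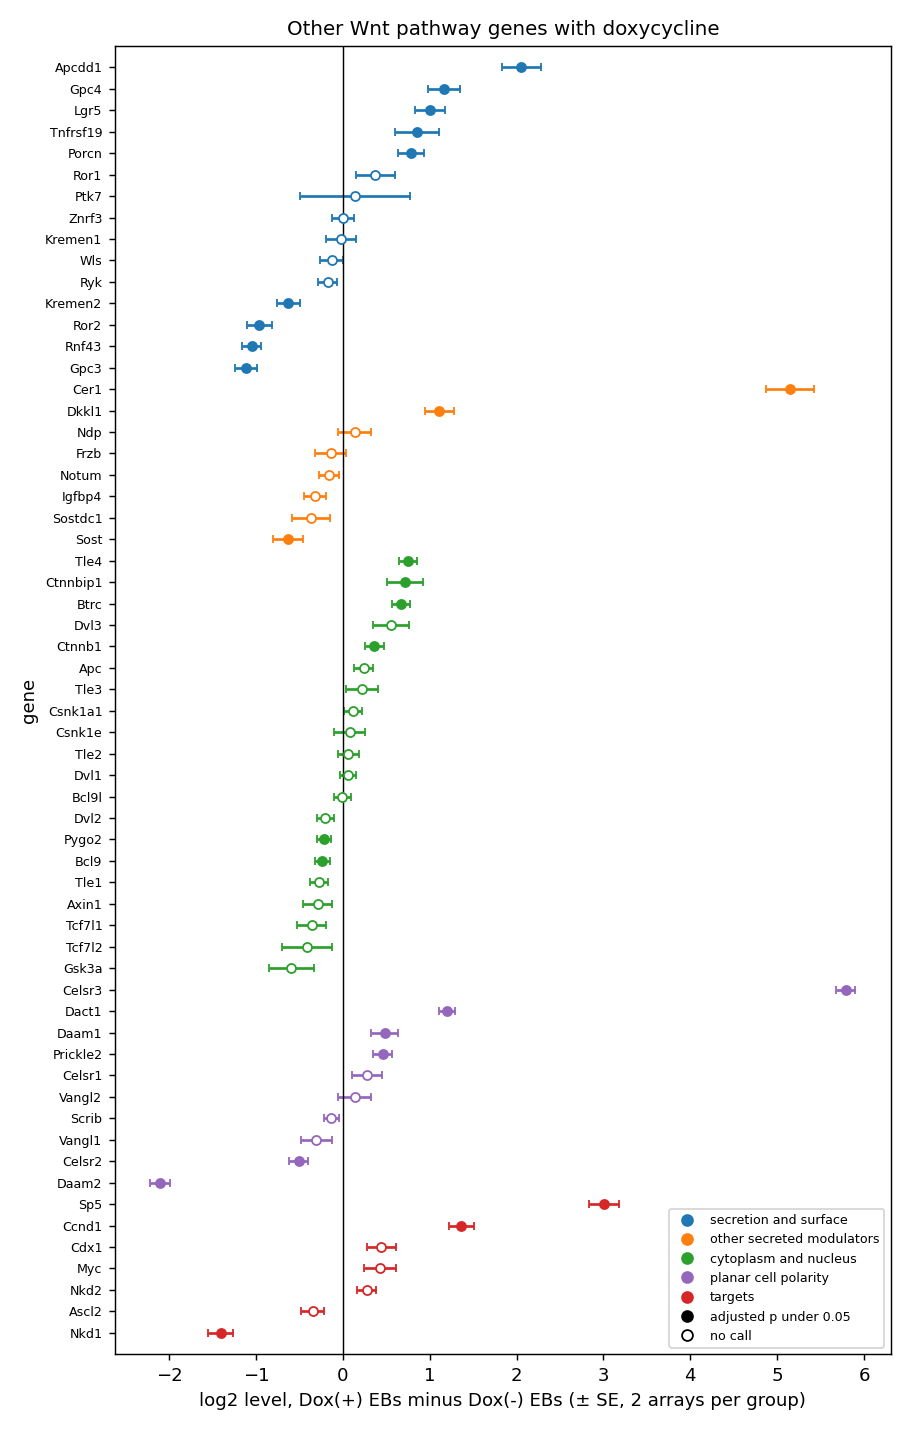
Log2 level in Dox(+) EBs minus that in Dox(-) EBs (horizontal axis, ± SE, 2 arrays per group) for 60 tested Wnt pathway genes outside the family, by list, each gene drawn once. Filled points passed the test at an adjusted p under 0.05. Celsr3 (5.79), Cer1 (5.15) and Sp5 (3.01) lay farthest to the right and Daam2 (-2.10) farthest to the left.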

How the data were processed

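CodeLink Mouse Whole Genome arrays, 1 colour and 2 per group, were hybridised with total RNA of the 5 groups. The values deposited by the authors are intensity values from their scanner software (CodeLink Expression Analysis 4.1.0.29054). In it, the mean of a spot less the median of its local background is divided by 1 constant per array, the median over 34967 discovery probes, so spots near background have no measured low end. The probe filter and the GeneSpring 7 step of the study were not repeated. Control spots (1260 of 36227) were left out, and masked, contaminated or irregular spots were set missing. A spot that the scanner software marked as low was taken as at background.

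Probes were named through the platform annotation, with 21615 carrying 1 symbol. Intensities were floored at 0.27 and log2 transformed, and limma 3.58.1 (R 4.3.3) estimated the mean of each group from all 10 arrays together (trend and robust eBayes, 5 residual degrees of freedom). The test covered 28109 probes, p was adjusted by Benjamini-Hochberg over all of them, and the threshold was 0.05. Shares over all genes take 1 probe per gene. A fold is written "at least" where the lower group was at background, with the lowest level above background of each array in place of its value. Genes named in full were the called members with Dox whose groups did not overlap (up to 12 per direction), and Axin2, Lef1, Lrp5 and Lrp6. Up to 4 per direction in each other comparison and up to 4 per pathway list were named too. Members, lists and tests were chosen with earlier results of these data known. The fit was also run on simulated data, with normal noise around a mean that all groups shared except in a set of changed probes. These data differ from that setting, and no result here rests on that run. Alternatives were other normalizations, floors and filters, EB or group arrays alone, plain eBayes, a 2-fold minimum, a replicate block, the mean over probes, and leaving out each array. Tables were made with pandas 2.3.3 and numpy 2.4.6 and plots with matplotlib 3.10.9, under Python 3.11.15.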

Additional observations from a re-analysis of the deposited data

How the results depend on the processing

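Of the 19 genes called with Dox, Wnt4, Fzd3, Fzd5, Dkk2, Dkk3, Sfrp5 and Rspo3 kept their call and direction under every alternative in which they were tested. Fzd4 and Sfrp1 lost theirs under the 2-fold minimum alone, Wnt5a with the EB arrays fitted alone, and Rspo2 at a floor of 1. The log2 difference of Lef1 reversed to -0.68 with the RefSeq-named probe, an alternative chosen after seeing the data. The same count alternatives moved the numbers of genes as follows, and the causes were not tested unless fewer genes were tested.

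With a floor of 1, 6 genes rose with Dox. Against βTC6 cells 1 gene was lower in Dox(+) EBs, against islets 7 were higher, against E15.5 pancreas 5 were lower, and 8 were lower in islets when set against E15.5 pancreas. Among the 19 genes above background on all arrays, where fewer genes were tested, 5 rose and 4 fell with Dox. The higher and lower genes were then 8 and 3 against βTC6 cells, 5 and 5 against islets, and 8 and 2 against E15.5 pancreas, and 5 were lower in islets when set against E15.5 pancreas. With a 2-fold minimum, 5 rose and 4 fell with Dox, the higher and lower genes were 8 and 2 against βTC6 cells, 5 were higher against islets and 5 against E15.5 pancreas, and 8 were lower in islets when set against E15.5 pancreas. With the EB arrays fitted alone, 6 rose.

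Leaving out 1 array gave 6 to 8 rises (6 without Dox(+) replicate 1 or 2) and 6 to 9 falls with Dox. The higher and lower genes were 14 to 16 and 4 to 6 against βTC6 cells (4 without Dox(+) replicate 2), 9 to 13 and 8 to 9 against islets, 11 to 12 and 7 to 8 against E15.5 pancreas, and 8 to 9 and 11 to 13 for islets against E15.5 pancreas. With 1 array left in a group, that array is assumed to vary like the other groups. The replicate numbers did not pair the arrays (correlations of deviations from -0.07 to 0.07), and with the replicate block 9 genes rose and 9 fell with Dox. The other counts stayed within 1.5 times the reported ones.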
